A study of Schizosaccharomyces pombe with 4 samples.

Results

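The 8 array features described here are those that the array annotation calls a meiotic recombination protein or the protein kinase mek1, without the features of rec11, which belongs to the meiotic cohesin. They are 8 of the 4997 features of a 1-colour oligonucleotide array of fission yeast, Schizosaccharomyces pombe, and 7 are described as recombination proteins and 1 as mek1. Messenger RNA was measured in a wild-type strain (FY12806) and in a strain that lacks red2 (SP744), with 2 arrays per group. All cultures grew logarithmically at 30 °C in rich medium with 0.5% yeast extract, 3% glucose and 75 mg/L adenine, so no group was starved or induced to enter meiosis. The labels do not say whether both arrays of a strain used RNA of separate cultures, and the p-values cover only the spread seen between them, technical or biological.

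The annotation spells out a symbol for 5 of the features, namely rec6, rec7, rec14, rec15 and mek1. The other 3 are called only a meiotic recombination protein, and they were named from their neighbours in the RefSeq gene table (assembly ASM294v3). The feature on chromosome I at 1765087 to 1766365 is called rec12 here, because the table places rec12 beside ucp7 and fol2 and the lengths of all 3 features equal those of the genes, at 1279, 2094 and 872 bp. The feature on chromosome I at 3374503 to 3375575 is called dmc1, since it lies beside a feature described as Rad24p and the table places dmc1 beside rad24. The feature on chromosome I at 4262603 to 4264978 is called rec10, since it lies between a bZip regulator and an ATP phosphoribosyltransferase, as rec10 lies between zip1 and his1 in the table. The lengths of dmc1 and rec10 do not match, at 1073 bp on the array against 1141 bp in the table and at 2376 against 2527 bp, so both names rest on the neighbours and are less certain than that of rec12. Coordinates are those of the array annotation, whose genome build the labels and headers do not state.

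Meiotic recombination starts with double-strand breaks that a complex of proteins makes in the DNA, on chromosomes organised along a protein axis. The broken ends then invade the homologous chromosome, and a checkpoint kinase watches over their repair. Fission yeast that grows by mitosis keeps many meiotic messages low through a nuclear decay route, in which the RNA-binding protein Mmi1 recognises them.

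In the deletion strain, 6 of the 8 features rose, 1 fell and 1 missed the threshold (limma on log2 intensity, two-sided, Benjamini-Hochberg adjusted p under 0.05 over all 4997 features). Of all features, 34% were called higher and 29.8% lower by the same rule, so a call alone says little. The sizes reached further: mek1, rec10 and rec15 rose at least 2-fold with no overlap between groups, 3 of 8 features, where 2.72% of all features passed that rule. The groups did not overlap for 7 of the 8 features, a share close to the 84.6% found over all features. The median log2 fold change was 0.70 over the 8 features and 0.01 over the whole array. That median rests on 8 features chosen with earlier results of these data known, and no test is attached to it.

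Some facts of the arrays bear on every value. The gene lost in the deletion strain was checked first: the single feature of the array that stood above 11 on the log2 scale in both wild-type arrays and below 9 in both deletion arrays is a serine- and proline-rich protein on chromosome I at 2603271 to 2604926, at 14.93 and 15.05 in wild type, against 5.39 and 4.75 in the deletion strain. The name red2 was not matched to it here. The description of deletion replicate 2 names red3, while its title and strain say red2, so results are also given without that array. The array codes in the column headers share a number within a strain and differ between the strains; what that number marks is not stated, and it cannot be told apart from genotype. Across all features the fold change rose with feature length (Spearman rho 0.445, a description across genes that are not independent), so the value with that trend removed is given beside a named feature where it differs by more than 1.5 times.

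The largest change was that of mek1 (chromosome I, 5192341 to 5193767), a kinase that acts in the checkpoint over meiotic recombination. Its log2 intensity was 11.71 and 11.74 with red2 present, and 13.90 and 13.91 without it. Both deletion arrays lay far above both wild-type arrays, and the arrays of a group almost coincided. The level rose 4.53-fold, a log2 change of 2.18 ± 0.05 (limma SE, n = 2 per group, adjusted p = 6.95e-06), with a 95% interval of 2.06 to 2.29. This was the increase of rank 21 among all 4997 features. Each array carries 2 blocks of values per gene, and mek1 stood at 2.16 in the first block and 2.19 in the second.

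Rec10 is a protein of the linear elements, the axis structures that form along fission yeast chromosomes in meiosis. Its feature, which spans 2376 bp, read 11.98 and 12.14 in wild type, against 13.43 and 13.37 in the deletion. The groups were well apart, by 1.23 on the log2 scale from the higher wild-type to the lower deletion array. The level of rec10 rose 2.53-fold, a log2 change of 1.34 ± 0.07 (limma adjusted p = 6.31e-05), and it ranked 69 among the increases. With the length trend removed the log2 fold change was 1.06, the lowest value of rec10 under any of the alternatives run.

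**Figure D1:**
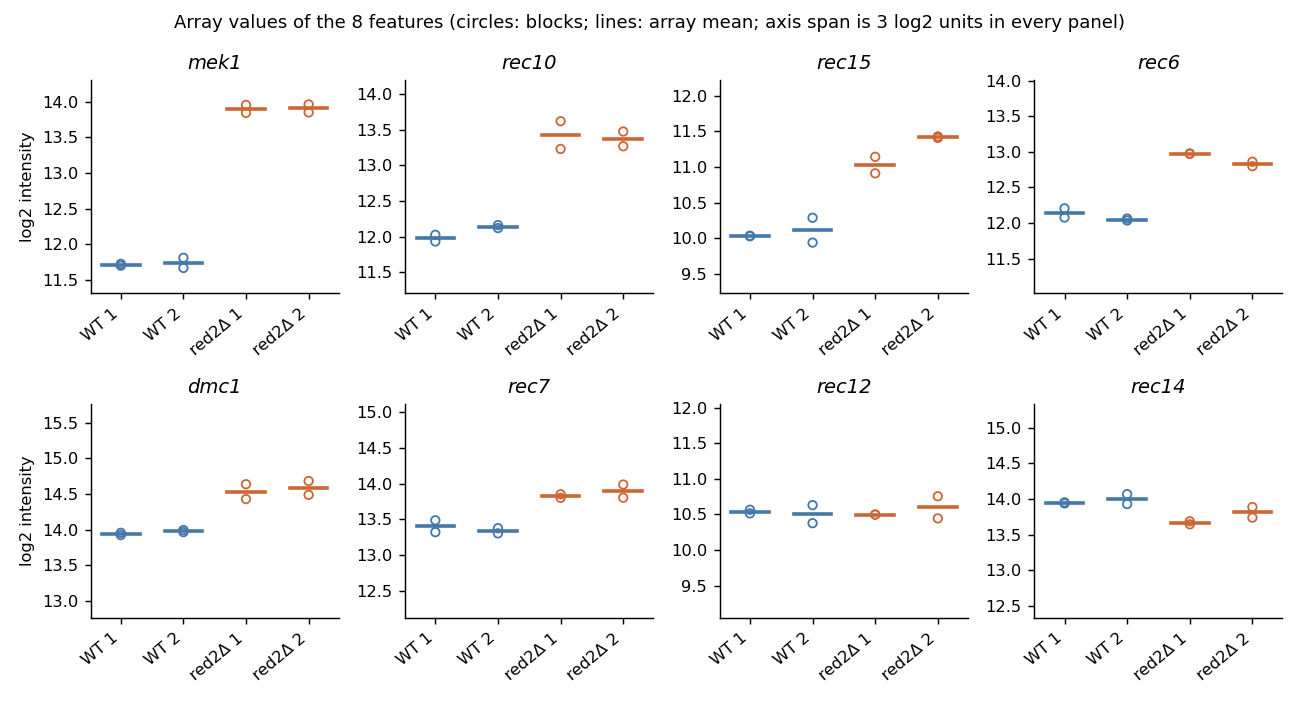
Log2 intensity of each of the 8 features on the 4 arrays, wild type (WT) in blue and red2 deletion in orange; circles are the 2 blocks of an array and lines their mean, and every panel spans 3 log2 units. The deletion arrays lie above the wild-type arrays for 6 features, farthest for mek1 (11.71 and 11.74 against 13.90 and 13.91), overlap them for rec12 and lie below them for rec14.

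Rec12 is the counterpart of Spo11, the enzyme that cuts the DNA, and rec6, rec7, rec14 and rec15 encode partners without which breaks are not made. Of these 5 features, rec15, rec6 and rec7 rose, rec14 fell and rec12 did not pass.

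Among the partners, rec15 (chromosome II, 2120620 to 2121211) changed the most. It read 10.03 and 10.11 in wild type, against 11.03 and 11.42 in the deletion. The deletion arrays were both higher, but they differed from each other more than those of any other member, with an SD of 0.28 on the log2 scale. The level of rec15 rose 2.22-fold, a log2 change of 1.15 ± 0.13 (limma adjusted p = 0.000561). Without deletion replicate 2, the array whose description names red3, the log2 fold change was 0.95 with adjusted p = 0.000115, which is under 2-fold. Without deletion replicate 1 it was 1.35.

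The feature of rec6 (chromosome II, 1608116 to 1608749) read 12.14 and 12.05 in wild type, against 12.97 and 12.83 in the deletion. The groups did not overlap, and the level rose 1.75-fold, a log2 change of 0.81 ± 0.07 (limma adjusted p = 0.000241). These are the 2 shortest members, rec6 at 634 bp and rec15 at 592 bp. With the length trend removed the log2 fold change of rec6 was 1.02 and that of rec15 was 1.38.

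Rec7, the counterpart of Rec114 in budding yeast, had a feature on chromosome III at 1551787 to 1552968. Its log2 intensity was 13.40 and 13.34 in wild type, against 13.83 and 13.90 in the deletion. The deletion arrays were both higher by a modest step, and the level rose 1.40-fold, by 0.49 ± 0.05 (limma adjusted p = 0.000584). The increase ranked 669 of 4997, and 1298 features changed by more in either direction.

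The break enzyme itself showed no difference that this design could resolve. The feature called rec12 read 10.54 and 10.50 in wild type, against 10.50 and 10.60 in the deletion. The groups overlapped, with the lowest of the 4 values in a deletion array. The log2 fold change was 0.03 ± 0.06 (limma adjusted p = 0.698), and its 95% interval ran from -0.11 to 0.17. An increase of the size seen for rec6 or rec7 lies outside that interval, but the interval rests on 2 arrays per group. The feature is also among the dimmest 25% of the array, with an unknown share of background, so such an increase is not excluded. The direction of rec12 turned under 4 alternatives, in none of which it passed the test, with values down to -0.118 with quantile normalization.

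Rec14 stood apart in direction. It is a WD repeat protein that the RefSeq table also lists as ski8, after the budding yeast protein that acts both in break formation and in RNA decay. Its feature (chromosome II, 2746056 to 2747017) read 13.946 and 13.999 in wild type, against 13.67 and 13.81 in the deletion. Both deletion arrays were lower, by at least 0.13 on the log2 scale. Rec14 fell by 0.23 ± 0.07 in log2 level, a 1.18-fold difference (limma adjusted p = 0.022). The call was lost without wild-type replicate 2 (adjusted p = 0.096), with the length trend removed (0.0522) and in the first block alone (0.182), where the log2 fold change was -0.15 against -0.32 in the second block. Of all features, 53.8% changed by more than rec14 did.

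Dmc1 is the meiosis-specific recombinase that carries a broken end into the homologous chromosome. Its feature read 13.94 and 13.98 in wild type, against 14.53 and 14.58 in the deletion. The arrays of a group lay close together and the groups did not overlap. The level of dmc1 rose 1.52-fold, a log2 change of 0.60 ± 0.05 (limma adjusted p = 0.000234). Its value kept between 0.54 and 0.63 over the 15 alternatives, several of which cannot move it.

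**Figure D2:**
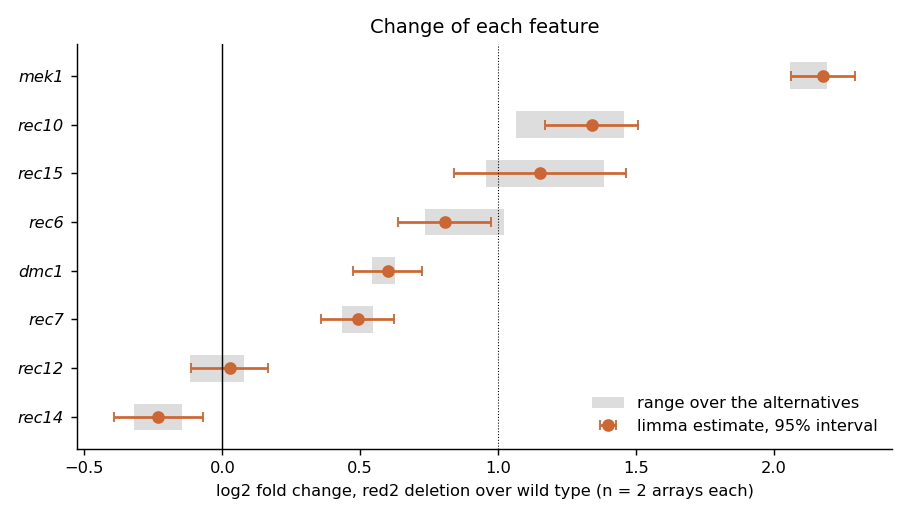
Log2 fold change of each feature, red2 deletion over wild type (n = 2 arrays each); points are limma estimates with 95% intervals, grey bars the range over the alternatives, and the dotted line marks 2-fold. The estimates run from 2.18 for mek1 to -0.23 for rec14, the interval of rec12 spans 0, and the grey bar of rec15 reaches below the 2-fold line.

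Read by role, the largest increases were spread over the pathway: the kinase mek1, the axis protein rec10 and the break partner rec15. The 6 features that rose had no overlap between groups, so any pairing of a deletion with a wild-type array gave an increase. For arrays of the same number the log2 differences ran from 0.42 in rec7 to 2.19 in mek1. The 8 features lie on all 3 chromosomes, 4 on I, 3 on II and 1 on III, and none lies next to another.

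Without deletion replicate 2 the picture held for the members not yet given. The log2 fold changes were 2.17 for mek1, 1.37 for rec10, 0.88 for rec6, 0.57 for dmc1 and 0.46 for rec7, all past the threshold (limma adjusted p at most 0.00104). That of rec14 was -0.31 (0.00431) and that of rec12 was -0.02 (0.705), so the 6 increases and the decrease were called with either deletion array alone.

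**Figure D3:**
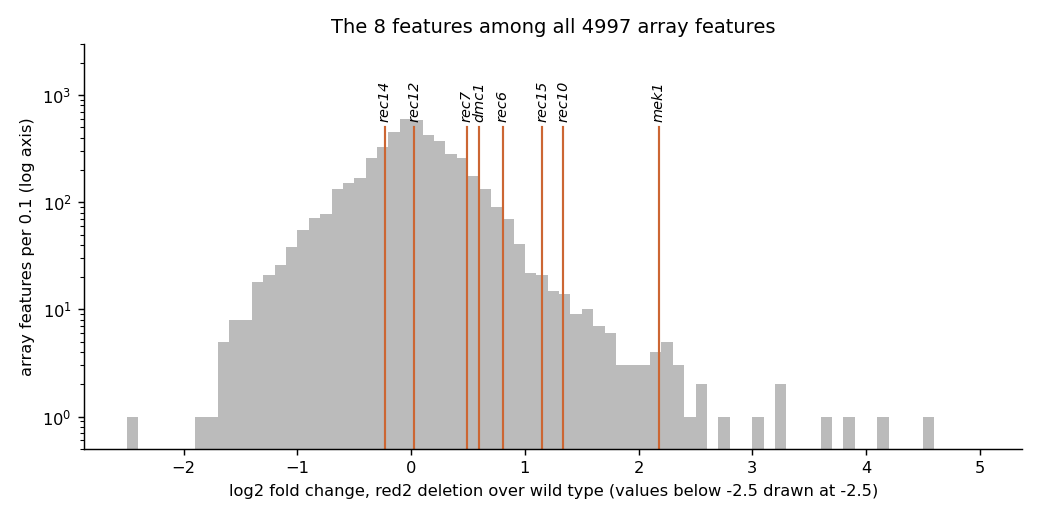
Number of array features (log axis) by log2 fold change, red2 deletion over wild type, in steps of 0.1, with the 8 features as orange lines. Most features sit near the median of 0.01, rec12 and rec14 lie within the bulk, and mek1 at 2.18 lies in the right tail.

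The array signal of several of these genes was dim, and the share of background in it is unknown. The features of mek1, rec10, rec6, rec15 and rec12 were among the dimmest 25% of the array by mean log2 intensity, and those of dmc1, rec7 and rec14 were not. No member neared the top of the scale: the highest member value was 14.58 on the log2 scale, in dmc1. No call of signal over background was at hand. With the dimmest 25% left out, 3 members remained to be tested, of which dmc1 and rec7 rose and rec14 fell.

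The features beside the strongest members did not rise with them. The 6 nearest features to mek1, rec10 and rec15, the nearest by midpoint on each side, ranged from -1.08 to 0.02 in log2 fold change. Beside mek1, a feature described as a putative SMC family protein fell by 0.16 ± 0.05 (limma adjusted p = 0.0376, and up to 0.259 over the alternatives) and a hypothetical protein fell by 0.32 ± 0.05. These log2 fold changes were -0.48 and -0.16 with the length trend removed. Beside rec10, the bZip regulator stood at 0.00 ± 0.05 and the ATP phosphoribosyltransferase at -0.07 ± 0.05, neither past the threshold. Beside rec15, histidinol dehydrogenase stood at 0.02 ± 0.06 and did not pass.

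The remaining neighbour overlaps rec15. A very hypothetical reading frame of 99 bp (chromosome II, 2121191 to 2121289) shares 21 bp with the rec15 feature, and it read 11.88 and 11.84 in wild type, against 10.64 and 10.91 in the deletion. It fell by 1.08 ± 0.09 on the log2 scale while rec15 rose. With the length trend removed its log2 fold change was -0.55. The labels do not state which strand the probes report.

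**Figure D4:**
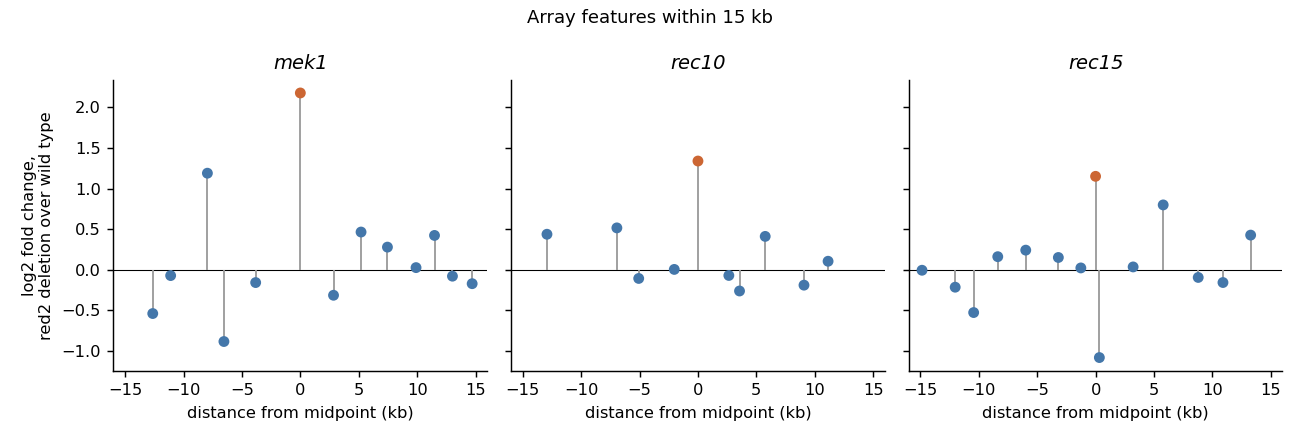
Log2 fold change, red2 deletion over wild type, of every array feature whose midpoint lies within 15 kb of mek1, rec10 or rec15, against the distance between midpoints; the member is orange. The other features within 15 kb of rec10 reach no more than 0.52, those around rec15 no more than 0.80, and 1 of 12 around mek1 exceeds 2-fold, at 1.19.

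Other genes of recombination and of the repair of broken DNA, taken from words and symbols in the array descriptions, gave a mixed picture. Of 14 such features, 9 rose, 3 fell and 2 did not pass, against 34% higher and 29.8% lower over all features. Their median log2 fold change was 0.29. The words also took a sequence orphan with low similarity to a RAD50-interacting protein. Overlapping features described as a yeast rad50 homolog counted in both directions, at -0.22 and 0.19. With the length trend removed they stood at -0.44 and -0.04, so the opposite directions were not kept. The highest were both features of rec11, the meiotic cohesin subunit, at 2.42 ± 0.06 and 1.57 ± 0.06, and these overlap each other. Next by p came rad32, a nuclease subunit that processes broken ends, which rose by 0.46 ± 0.05, and rhp54, a motor protein that assists strand exchange, which rose by 0.48 ± 0.06. The values of rad32 and rhp54 were 0.22 and 0.18 with the length trend removed. These genes serve vegetative repair as well. By counts in the same setting, 6 of the 14 rose, 3 fell and 5 did not pass, where 28.6% of all features were called higher and 35.2% lower. The median of the 14 then went to 0.09, and that of the 8 recombination and mek1 features to 0.82.

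Of 16 features of checkpoint proteins, 6 rose, 6 fell and 4 did not pass, with a median of -0.01, shares near the 34% higher and 29.8% lower over all features. The kinase rad3, which starts the DNA damage checkpoint, rose by 0.98 ± 0.05 on the log2 scale, and its effector chk1 rose by 0.63 ± 0.05. The adaptor rhp9 rose by 0.72 ± 0.05, and the spindle checkpoint protein mad2 fell by 1.11 ± 0.06. The values of rad3 and rhp9 were 0.64 and 0.45 with the length trend removed. The kinase cds1, which shares with mek1 a forkhead-associated domain and was singled out after its value was seen, fell by 0.37 ± 0.05, and by 0.55 with the length trend removed.

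Cells in mating or sporulation could also carry recombination messages, and their genes were examined by words in the descriptions. Of 27 features with words of mating, 13 rose, 6 fell and 8 did not pass, with a median of 0.23. As shares, 48.1% rose and 22.2% fell, against 34% higher and 29.8% lower over all features. The summed intensity of the 27 was 359086 to 363808 on the wild-type arrays and 383819 to 392437 on the deletion arrays. With the length trend removed 8 rose, 6 fell and 13 did not pass, against 28.6% higher and 35.2% lower over all features. Those with the smallest p were a protease of possible pheromone response (0.94 ± 0.05), a fig1-like protein (0.58 ± 0.05), an Apg12-like conjugation factor (-1.07 ± 0.10) and the silencing protein Clr4 (0.60 ± 0.06), of which the conjugation factor joins proteins and Clr4 silences chromatin, so that the words took more than mating genes. The protease stood at 0.62 with the length trend removed. Pheromone receptors were looked at after their values were seen. The m-factor receptor rose by 0.42 ± 0.07, also 0.42 with the length trend removed, and the p-factor receptor did not pass (0.10 ± 0.05). The pheromone precursors and the mating-type m-specific polypeptides, 6 features singled out after their values were seen, went both ways. Of these, m-factor precursor 2 fell by 0.94 ± 0.15, polypeptide mc by 0.59 ± 0.07 and M-factor precursor 3 by 0.45 ± 0.05, while the p-factor precursor rose by 0.41 ± 0.08, polypeptide mi by 0.35 ± 0.08 and M-factor precursor 1 by 0.28 ± 0.07. Removing the length trend put the 3 that fell at -0.60, -0.34 and -0.13 and the 3 that rose at 0.64, 0.78 and 0.60, and M-factor precursor 3 no longer passed (limma adjusted p = 0.0536). Under at least 1 other alternative each of the 3 that rose missed the threshold, with adjusted p up to 0.0891, 0.812 and 0.575 in that order. Polypeptide mi had the dimmest signal of the mating list, with log2 intensities of 5.82 and 6.04 (wild type) against 6.26 and 6.31 (deletion). The feature lost in the deletion strain stood little lower there, at 5.39 and 4.75, so the rise of mi is uncertain. Over the alternatives the log2 fold change of mi went as low as 0.035. Of 7 features with words of sporulation, 2 rose, 2 fell and 3 did not pass, shares near the 34% higher and 29.8% lower over all features. Their median was -0.003, and their summed intensity was 128322 to 129965 in wild type and 124076 to 131070 in the deletion, again weighted to bright features. Several of the 7 are described only as possibly or putatively tied to sporulation, and the kinase byr1 is in the mating list too, so this list is no clean set of sporulation genes. A tyrosine phosphatase of possible sporulation function was the highest of the 7, at 0.65 ± 0.07, a Krr1-like protein stood at -0.28 ± 0.05, a gene that requires Mei4 for activation at -0.47 ± 0.09 and a bromodomain protein at 0.27 ± 0.06. Without the length trend the gene that requires Mei4 stood at -0.26 and the bromodomain protein at 0.02, no longer past the threshold (limma adjusted p = 0.732). No feature of either list was at 0, and the part of such cells in the changes of the recombination genes was not tested. In bulk RNA, more cells with a message and more message per cell cannot be told apart.

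**Figure D5:**
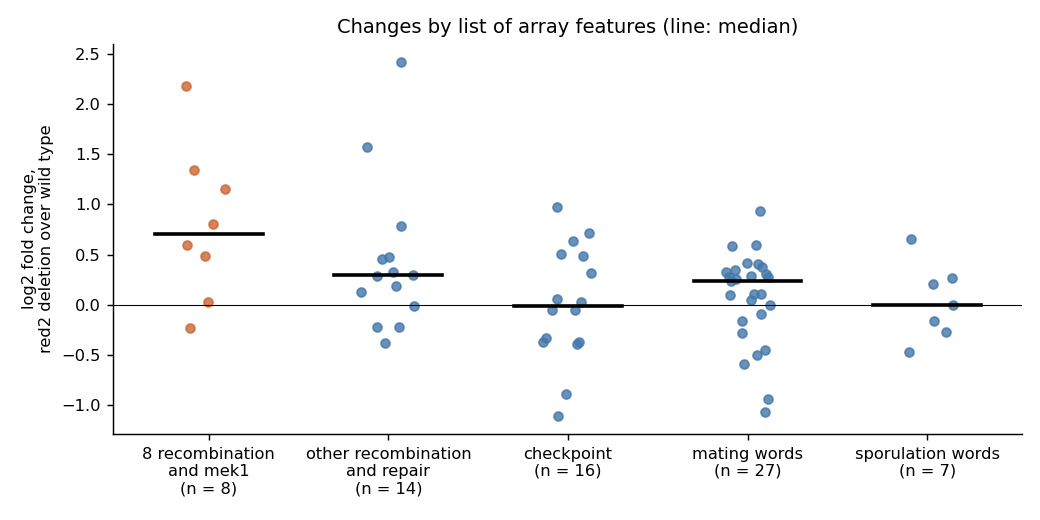
Log2 fold change, red2 deletion over wild type, of each feature in 5 lists; points are features and lines medians. The 8 recombination and mek1 features have a median of 0.70, the other recombination and repair features 0.29, checkpoint features -0.01, features with mating words 0.23 and features with sporulation words -0.003.

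Among messages known as targets of Mmi1, the list could be matched to ssm4, whose product binds microtubules and moves the nucleus in meiosis, and to a feature whose description names Mei4 only as its activator. The level of ssm4 rose by 2.23 ± 0.05 on the log2 scale, close in size to mek1, and the other feature fell by 0.47 ± 0.09.

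The features whose pattern over the 4 arrays was most like that of mek1, by Euclidean distance of log2 deviations from the wild-type mean, were a short chain dehydrogenase on chromosome III, a gene of chromosome I named for its higher expression in meiosis and a hypothetical protein on the same chromosome. Their distances to mek1 were 0.070, 0.079 and 0.088 on the log2 scale. A choice by this distance fixes log2 fold changes near that of mek1, and theirs were 2.20, 2.22 and 2.22. The last of them, at 2601640 to 2602875, ends 395 bp before the feature that was lost in the deletion strain.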

How the data were processed

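The authors deposited linear intensity values of 4 NimbleGen arrays, processed with RMA per the submitters' processing notes, with no version; which steps were run, and how the 14 probe pairs per gene of 60 bases entered, is not stated in the labels or headers. The deposited ratio of deletion to wild type in the pair tables equalled the quotient of the intensity columns to within 4.80e-09. All 9994 values of each array were the same in the value table and the pair tables. Median intensity was 21232 to 22158 per array, arrays of a group correlated across features with r = 0.996 and 0.997 (0.934 to 0.945 between groups), and precision is limited by having 2 arrays per group.

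The 2 blocks of a feature were averaged as log2 within each array. limma (3.58.1, R 4.3.3; lmFit and eBayes) was fitted to all features with genotype as the only term, with no pseudocount, filter or further normalization. Errors after ± are limma's standard errors. The fit was tested on simulated data. Members, lists and alternatives were chosen with earlier results of these data known. Every member is named; of each list the 4 features with the smallest p, the nearest neighbours of members changed at least 2-fold, and the 3 features most like mek1 are named too. Alternatives were quantile normalization, median centring, leaving out the dimmest 25%, adding 32 before log2, the deposited ratios, a replicate block, trend or robust priors, removing the length trend (loess, span 0.5), either block alone and each array left out. Sequences were not used here.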

Additional observations from a re-analysis of the deposited data

How the results depend on the processing

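Over 15 alternatives the 6 increases kept their direction and passed wherever the feature was tested. Of the alternatives, the deposited ratios, the replicate block and the trend or robust priors cannot move a fold change and bear only on the test. The deposited ratios and the replicate block gave the same calls and amount to the same fit. Leaving out the dimmest 25% of features removes 5 members by construction, so that 2 were higher, 0 were at least 2-fold apart and the median was 0.49. The 1 decrease, rec14, became 0 decreases with the length trend removed (log2 -0.16), with the first block alone (-0.15) and without wild_type replicate 2 (-0.21). The median of 0.70 went to 0.65 with arrays centred on their median and to 0.82 with the length trend removed. Not past the threshold in any setting, rec12 turned to -0.118 with quantile normalization, -0.029 with arrays centred, -0.055 with the length trend removed and -0.024 without red2_deletion replicate 2 (up to 0.0775 with another array left out). With each array left out in turn, members higher stayed at 6, members lower ran from 0 to 1, those at least 2-fold apart from 2 to 3 (rec15 stood at 0.95 without red2_deletion replicate 2), the median from 0.68 to 0.73, and all features called ran between 1424 and 1729 higher and between 1216 and 1594 lower. These fits take the spread of the lone array's group from the other group.

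When the replicate number was a block, 6 members were higher and 1 lower, as without it. Same-numbered arrays did not deviate together (r = -0.04 across features), so the numbers are not taken as pairs. All features called went from 1699 higher and 1487 lower to 1478 and 1788 with arrays centred, and to 1427 and 1761 with the length trend removed, each of which turned the balance. Signal over background is not known, which limits the fold changes of dim features most.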

Other observations

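The neighbours of the members that changed less than 2-fold were looked at after their values were seen. The feature before rec12, a hypothetical protein similar to yeast YGR268C (chromosome I, 1762353 to 1763027), rose by 0.86 ± 0.07 on the log2 scale (limma), although rec12 itself did not pass. It read 13.80 and 13.95 in wild type, against 14.78 and 14.68 in the deletion. The feature after rec12, similar to yeast swa2, did not pass (0.11 ± 0.05, and -0.12 with the length trend removed). Around rec14, the feature on the lower side, a sphingomyelinase-like protein, rose by 0.58 ± 0.05, and the glutathione peroxidase on the higher side fell by 0.65 ± 0.05, which was -0.39 with the length trend removed. The homeodomain protein and the dpm2-like protein on either side of rec6 stood at -0.39 ± 0.07 and -0.38 ± 0.06, against 0.81 for rec6. With the length trend removed these 2 values were -0.16 and -0.11. Beside dmc1, a lysophospholipase fell by 0.53 ± 0.09, and Rad24p did not pass (-0.05 ± 0.05). Beside rec7, git3 rose by 0.34 ± 0.06 and a halotolerance protein homolog fell by 0.21 ± 0.06. Removing the length trend put Rad24p at -0.11 and git3 at 0.23.

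Within 15 kb of mek1, 1 of 12 other features exceeded 2-fold, at 1.19, and none within 15 kb of rec10, dmc1, rec12, rec6 or rec7 did so in either direction. In the lower direction, 1 of 16 features near rec14 (-1.10) and 1 of 13 near rec15 (-1.08) changed at least 2-fold.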
